A study of Mus musculus with 36 samples.

Results

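The unexposed control embryos were 12 of the 36 embryos of the study, chosen by their sample titles, which number them as whole-embryo controls 1 to 12. They were male embryos of the inbred mouse strain C57BL/6J, taken whole at 9.5 days post coitum from mothers that drank water. The other 24 embryos shared strain, sex and age. They came in groups of 12 from mothers with voluntary access to 10% ethanol or to freebase nicotine at 100 µg/ml from 0.5 to 8.5 days post coitum. Those embryos serve here to set control spreads and correlations beside values not used to rank or group the genes. Total RNA of each embryo was read on 1 Illumina bead array, on which each probe gives 1 fluorescence intensity. Shared mothers, dissection days and slides are not marked in the labels.

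At this age the mouse embryo has turned, its neural tube is closing, its heart beats and its tail bud is still adding somites. Its blood holds primitive erythroid cells, large nucleated red cells that were born in the yolk sac and carry embryonic globins. The embryo is wrapped in the visceral yolk sac, whose endoderm secretes apolipoproteins and other serum proteins before the liver does so, and it is joined to the placenta, whose trophoblast giant cells make prolactin-like hormones.

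Of 45281 probes, 16313 reached an intensity of 32 on at least 6 of the 12 control arrays and were kept. They cover 9411 named genes, and 2139 kept probes were unnamed. The brightest kept probe stood for its gene. Of all probes 13791 reached that minimum on all 12 arrays and 26225 on none, while 393 reached it on exactly 6 arrays and 341 on exactly 5. Genes that were bright in fewer than 6 embryos were therefore left out, and some of them are named further on. A level below is the deposited intensity, which has no unit and is linear, and a mean level carries its SD over n = 12 embryos. A difference or a spread is on the scale of log2(intensity + 16), which understates differences of dim probes. Levels of different genes also depend on how well each probe binds, so their order is an order of signals.

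Some libraries stood apart. Replicates 1 to 6 and 7 to 12 formed separate sets, and the means of these sets held 44.7% of the sum of squares of the control data. In limma, 6020 of 16313 probes (36.9%) differed between the sets at an adjusted p under 0.05, with 20.1% higher and 16.8% lower in replicates 7 to 12. The labels do not say what divides the sets. Deviations below are therefore distances from the mean of an embryo's own set, and the deviation SD of a gene is the SD of its 12 deviations with 10 degrees of freedom. Of the remaining sum of squares Control 6 held 16.4%, Control 3 12.8%, Control 4 12.2% and Control 8 11.3%, against 3.44% to 8.73% in the other 8 embryos. Values without the embryo concerned are given with the main results that rest on 1 of them, but not for every gene. The label male was checked with Y-linked genes: Eif2s3y had levels of 212 to 827 and Kdm5d of 72.3 to 221, while Uty lay at 32.5 to 49.6 and Zfy1 and Zfy2 stayed below 32 in all 12 embryos (3.39 to 13.8 and 3.69 to 9.24). The X-inactivation RNA Xist stayed at 5.69 to 18.6, below 32 in all 12 embryos.

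The brightest named genes of the control embryo made proteins of the ribosome, of translation, of mitochondrial ATP synthesis and of red cells. Rps4x, a ribosomal protein gene, led with a mean level of 16463 ± 1110 (SD, n = 12), with a lowest value of 14193, a median of 16550 and a highest value of 18147. Rplp1, which builds the ribosomal stalk, followed at 16443 ± 1099 with a range of 15110 to 18147. The ranges of both genes overlapped almost fully, and each was dimmest in Control 7. The highest value any probe can take on these arrays is 18147, so the top of the scale compresses both the order and the spread of the brightest genes.

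Other ribosomal genes among the 20 brightest followed. Rps9 stood at 16187 ± 780, Rpl27 at 15879 ± 2017, Rps2 at 15573 ± 794, Rpl9 at 15534 ± 1526, Rps7 at 15302 ± 587 and Rps14 at 14941 ± 1421. Of the 59 kept genes whose symbols begin with the ribosomal protein prefixes, 35 were among the 100 brightest genes. Genes that feed messages and amino acids to the ribosome stood with them: Eef1g at 15091 ± 1621, the elongation factor Eef1a1 at 14960 ± 1493, the RNA helicase Eif4a1 at 14912 ± 724 and the RNA-binding protein Ybx1 at 15922 ± 1175. Atp5g3 and Atp5b, subunits of ATP synthase, stood at 15698 ± 795 and 15278 ± 1074. The others were Tuba1b, a tubulin of the cytoskeleton (16139 ± 1317), the core histone gene H2ac10 (15345 ± 743), the ubiquitin pseudogene Ubb-ps (15077 ± 1042), Selenoh, a nuclear selenoprotein (15076 ± 1036), and the peroxide-clearing enzyme Prdx2 of red cells (15255 ± 1276). The only globin among the 20 was Hba-a1, adult alpha globin, at 15985 ± 1073.

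Their deviation SDs ran from 0.06 to 0.20 on this compressed part of the scale, and no pair of neighbours in this order was separated by more than the spread between embryos. Of the 20 genes, 17 to 20 were within the 50 brightest of each embryo, apart from Control 7 with 13. Other probes of some of these genes did not follow the brightest one: the deviations of the second probe correlated at -0.75 and 0.92 for the 2 others of Eef1a1, at -0.42 for Ubb-ps, at -0.39 for H2ac10 and at -0.25 for Ybx1. Of the 20 brightest probes in all, 10 had no gene symbol in the annotation used, so the list of named genes is not the list of the brightest signals.

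**Figure D1:**
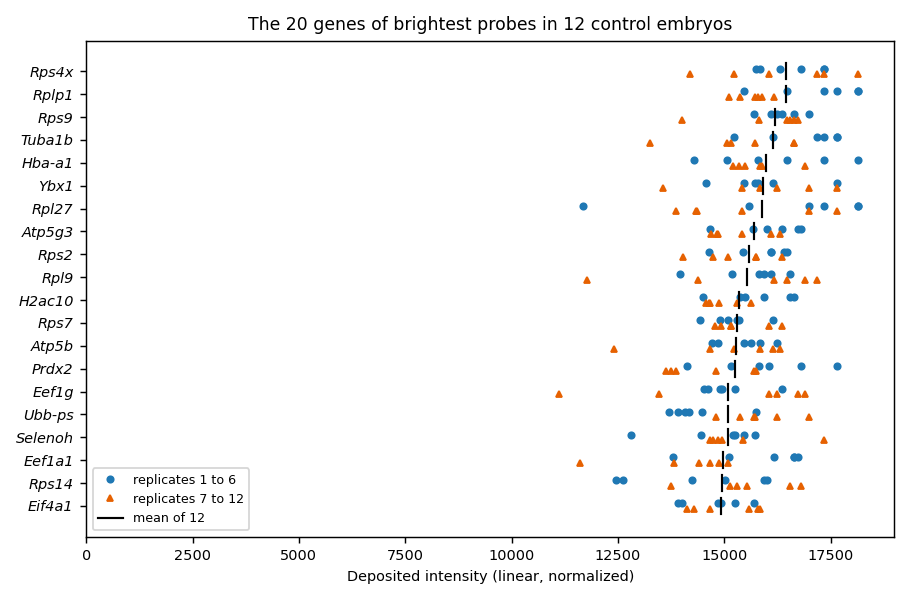
Deposited intensity (linear axis from 0) of the 20 genes with the brightest probes in each of the 12 control embryos, circles for replicates 1 to 6, triangles for replicates 7 to 12, and a line at the mean of 12. The means fall from 16463 to 14912 while Rpl27 alone ranges from 11689 to 18147 between embryos, so the clouds of neighbouring genes overlap.

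Beyond these 20 genes 122 had a mean level of 10000 or more. Markers of what the embryo is made of stood among them or just below. Embryonic globins were near the top of the scale: Hbb-y had a lowest, median and highest level of 10314, 14173 and 15310, Hba-x of 9905, 13862 and 15110, and Hbb-bh1 of 9403, 13218 and 15892. All 3 were dimmest in Control 7. Heart muscle genes were bright too, with the atrial light chain gene Myl4 at 9852 ± 2453 and cardiac actin Actc1 at 9697 ± 1653. The imprinted growth factor gene Igf2 stood at 14347 ± 1591 and the imprinted cell cycle inhibitor Cdkn1c at 12031 ± 1913. Glycolysis was represented by Ldha at 13784 ± 764 and Pkm at 12869 ± 1289, iron storage by Fth1 at 14581 ± 653 and protein folding by Hspa8 at 14098 ± 750.

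Most genes differed little between embryos. The median deviation SD of the 9411 genes was 0.20 and the 95th percentile was 0.47. A spread of at least 0.5 was found for 358 genes (3.8%) and of at least 1 for 32 genes (0.34%). Spread depended on level: the median fell from 0.28 for genes with mean log2 levels of 5 to 6 to 0.19 at 8 to 9 and 0.14 at 13 to 15. Where a gene with a deviation SD of at least 0.5 had a second kept probe, that probe moved with it: over 82 such probes of 66 genes the median correlation of deviations across the 12 embryos was 0.91, and 71 probes (86.6%) were over 0.5. For genes with an SD under 0.2 the median was 0.35.

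**Figure D2:**
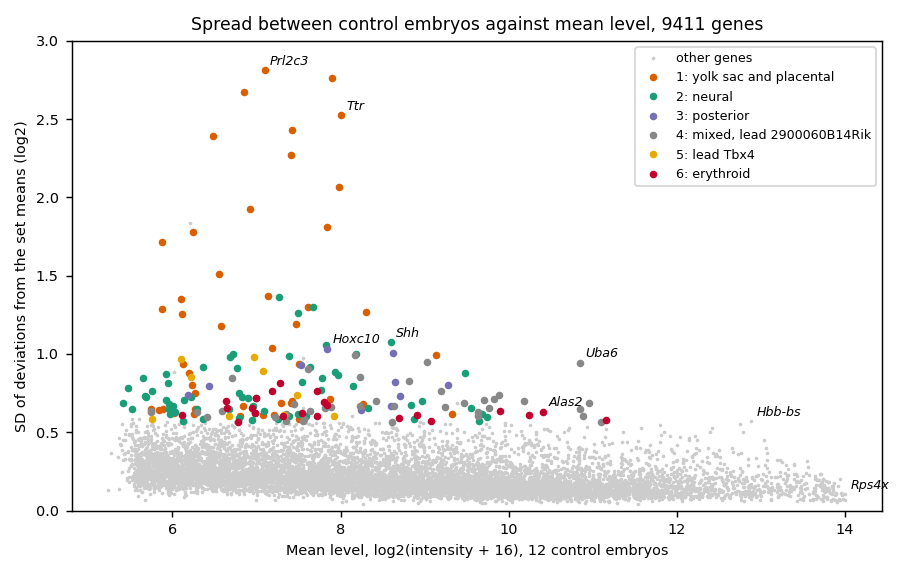
Deviation SD (log2) of each of the 9411 genes against its mean level, log2(intensity + 16), over 12 control embryos, with the 6 groups described in the text in colour. Grey points crowd below 0.5 and sink toward the right, and the orange yolk sac and placental genes reach 2.81.

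The genes of smallest spread among the brighter genes had varied functions. Gfod2 had the smallest, a deviation SD of 0.04 around levels of 240 to 349, followed by Jagn1, an endoplasmic reticulum protein gene, at 0.04 around levels of 2806 to 3100. Dus1l, Gpatch11, the nuclear export receptor gene Xpo5, Evi5, the Integrator subunit gene Ints3, the adaptor gene Sh2b1, the sterol carrier gene Scp2 and Foxred1 of complex I assembly followed, up to 0.06. They were picked for a small spread. In the exposed embryos their deviation SDs were 0.12 to 0.19 (ethanol) and 0.08 to 0.19 (nicotine), each above the value in the controls. Evenness within a set did not mean evenness across the 12 embryos: Sh2b1 was lower in replicates 7 to 12 by a log2 difference of -0.55 and Scp2 higher by 0.45. Other probes of Sh2b1 and Scp2 correlated with the named one at -0.50 and at -0.63 and -0.12.

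The genes of largest spread included many that are known from the yolk sac and the placenta. Of the 25 genes of largest deviation SD, 21 belonged to 1 group that varied together, and 12 of that group are on the list of visceral yolk sac and gut endoderm genes. The placental genes on top were Prl2c3, Prl2c2 and Prl2c4, hormones of trophoblast giant cells of the proliferin family, at deviation SDs of 2.81, 2.76 and 2.68, and Prl3d3, a placental lactogen gene, at 2.39. Prl2c3 had a lowest level of 3.36 in Control 6, a median of 93.3 and a highest of 15133 in Control 3, so 1 embryo reached the brightness of the ribosomal genes and others were at background. The Prl2c genes are near-identical copies whose probes could share signal, and the deviations of Prl2c3 and Prl2c4 correlated at 0.9995 over 12 embryos.

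Yolk sac genes followed the same embryos in part. Ttr, transthyretin, which carries thyroid hormone, had a lowest level of 19.3 in Control 9, a median of 190 and a highest of 6714 in Control 3, with 2761 in Control 1 and 1548 in Control 8. Apoa1, the main protein of high-density lipoprotein, had 12.6, 74.9 and 4761, again highest in Control 3 and then in Controls 8 and 1. Those 3 embryos were the highest for Apom, an apolipoprotein, as well, with 3007, 1625 and 1051 against 14.6 to 138 in the other 9. Deviation SDs were 2.52 for Ttr, 2.43 for Apoa1, 2.27 for Apom, 2.06 for the trypsin inhibitor gene Spink1, 1.92 for Amn, which carries the endocytic receptor cubilin to the surface, and 1.81 and 1.78 for Apoa2 and Apob.

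This first group held 45 of the 200 most variable genes, grouped by the correlation of their deviations. It also held the protease inhibitors Serpina1b, Serpina1d and Serpinf2 (1.51, 1.29 and 1.35) and the plasma protein genes Ambp, Trf and Fgg (1.37, 1.04 and 1.26), of which Ambp was highest in Control 11 at 602 and stood at 39.5 in Control 1. Further members were the endoderm regulators Foxa3 and Hnf4a (0.94 and 0.62), the X-linked homeobox genes Rhox5 and Rhox9 (1.27 and 1.72), and Phlda2, an imprinted gene that restrains placental growth (0.99). The average deviation over the group was 2.53 in Control 3, 1.24 in Control 8 and 0.52 in Control 1. It was lowest in Control 6 at -1.21 and in Control 2 at -0.91. Over pairs of its genes the mean correlation was 0.71 across 12 embryos, and 0.46 without Control 3. Membership of this and the later groups was set by the same correlations, so high values are built in. The grouping was not redone when an embryo was left out.

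Yolk sac and placental genes parted when Control 3 was left out. With all 12 embryos the 12 yolk sac genes correlated with the 5 placental genes (Prl2c2, Prl2c3, Prl2c4, Prl3d3 and Plac1) at a mean of 0.70, and without Control 3 at 0.36. Within the yolk sac genes the mean was 0.84 with and 0.73 without that embryo, and within the placental genes 0.87 and 0.73. Ttr and Apoa1 correlated at 0.95, and at 0.92 without Control 3, while Ttr and Prl2c3 went from 0.63 to 0.27. The deviation SD of Prl2c3 was 1.2 without Control 3, of Prl2c2 1.60, of Prl2c4 1.15 and of Prl3d3 0.85. The SD of Rhox9 was then 0.71, of Hnf4a 0.40 and of Lgals3, a galectin, 0.76 in place of 1.18. The SDs of Ttr, Apoa1 and Apom were 2.15, 1.98 and 1.89 without it, and those of Apob and Fgg 1.25 and 0.89. After Control 3 the highest levels of Prl2c3 were 612 in Control 12 and 528 in Control 8, and Control 12 was low for Ttr at 60.5.

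In RNA of whole embryos, fewer cells of a kind and less RNA per cell cannot be told apart, and neither can RNA of the embryo and of attached membranes. Of the defining markers of other trophoblast, Tpbpa of the spongiotrophoblast stayed at 2.80 to 4.28 in all 12 embryos. Several yolk sac genes failed the minimum on 6 arrays because few embryos carried them: Afp, alpha-fetoprotein, had a median of 19.3 and reached 795 in Control 3, and Cubn, cubilin, had a median of 3.99 and reached 303 there. Of the list of visceral yolk sac and gut endoderm genes 20 of 30 were kept, and 13 of the 20 (65.0%) had an SD of at least 0.5. Of the placenta and trophoblast list 8 of 19 were kept and 6 of the 8 had one, against 3.8% of all genes. Since the kept genes had to be bright in at least 6 embryos, these shares describe them and not the whole lists.

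Among the genes most like the Prl2c genes, Hmox1 and Zfp36 were outside the group. The 5 genes most like Prl2c3 by correlation of deviations over 12 embryos were Prl2c4 (0.9995), Prl3d3 (0.99), Prl2c2 (0.98), Hmox1 (0.95) and Rhox9 (0.94). Hmox1, which breaks down heme, ranged only from 59.3 to 130 with its highest value in Control 3. For Prl2c2 the list also held Zfp36 (0.90), an RNA-decay factor, with levels of 110 to 207. Without Control 3 the correlation with Prl2c3 was 0.997 for Prl2c4, 0.97 for Prl2c2, 0.95 for Prl3d3, 0.84 for Hmox1 and 0.63 for Rhox9, and that of Prl2c2 with Zfp36 was 0.64. The SDs of Hmox1 and Zfp36 were 0.27 and 0.25 with Control 3, and 0.15 and 0.12 without it.

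Gzmd, a granzyme gene known from lymphocytes of the pregnant uterus, was high in other embryos. Its deviation SD was 1.83, rank 10 of all genes, and it joined none of the groups. Its level was 718 in Control 4, 564 in Control 8 and 305 in Control 11, and 11 to 49.6 in the other 9 embryos. It correlated with Prl2c3 at 0.17 over 12 embryos and at 0.59 without Control 3, and with Ttr at 0.32 and 0.45. Of the maternal decidua list 8 of 12 genes were kept. Against 3.8% of all genes, 1 of the 8 had an SD of at least 0.5, Cryab at 0.52. The stromal gene Wnt4 of that list had an SD of 0.37. The part of maternal tissue in the level of Gzmd was not tested.

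**Figure D3:**
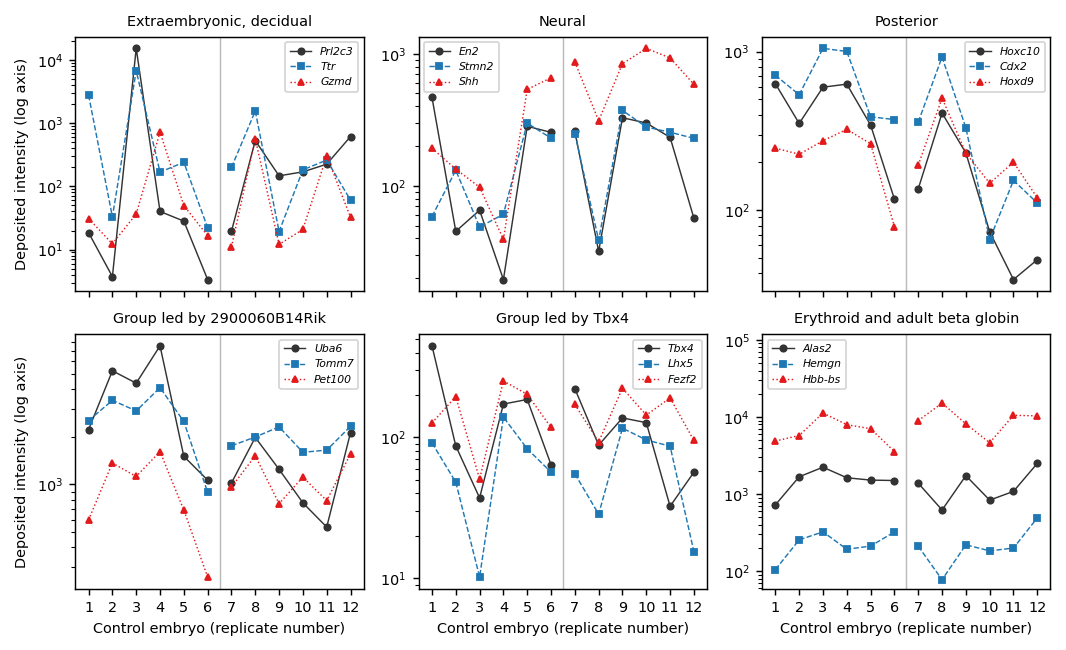
Deposited intensity (log axis) of 3 genes of each kind in control embryos 1 to 12, with a vertical line between the sets 1 to 6 and 7 to 12. Prl2c3 and Ttr peak at Control 3, Gzmd at Controls 4 and 8, En2 and Stmn2 are low in Controls 4 and 8, and Cdx2 is high in Controls 3, 4 and 8.

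The largest group of genes that varied together was neural. Of its 61 genes, 11 are on the list of neuronal differentiation and 4 on that of neural progenitors. En2, which marks the boundary of midbrain and hindbrain, had the largest deviation SD in it, 1.37, with a lowest level of 19.5 in Control 4, a median of 243 and a highest of 467 in Control 1. Controls 2, 3, 8 and 12 were low as well, between 31.9 and 65.3, and the other 7 embryos lay between 233 and 467. Dbx1, of ventral interneuron progenitors, had 37.7, 259 and 669, and its low embryos were Controls 2, 3, 4 and 8. Shh, the signal of notochord and floor plate, had 39.3, 562 and 1097, with Control 4 lowest and Control 10 highest.

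Genes of young neurons moved with these. Nefm, a neurofilament gene, had a lowest level of 19 in Control 8, a median of 226 and a highest of 424 in Control 5. Stmn2, a tubulin regulator of growing axons, had 38.7, 229 and 372, and Elavl3, an RNA-binding protein of new neurons, 8.29, 108 and 260. All 3 were lowest in Control 8, and Controls 1, 3 and 4 were below the median in each. Deviation SDs were 1.26, 0.99 and 1.0, and they were 0.92 for Dcx, a microtubule protein of migrating neurons, 0.91 for the peptide gene Sst and 0.65 for the proneural factor Neurog2. The SD of Sst was 0.55 without Control 8.

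Over the 61 genes the average deviation was 0.93 in Control 5, 0.66 in Control 6 and 0.51 in Control 9. It was -1.32 in Control 8, -0.72 in Control 4 and -0.64 in Control 3. The mean correlation over pairs of genes was 0.75, with a range of 0.64 to 0.80 when each embryo was left out in turn and the lowest value without Control 8. Ventral patterning genes were tied closely: Shh and Nkx6-1, which Shh induces in the neural tube, correlated at 0.92. Of the neuronal differentiation list 13 of 21 genes were kept and 11 of them (84.6%) had an SD of at least 0.5, against 3.8% of all genes. The 2 that did not were its 2 brightest kept members, Isl1, a motor neuron regulator, at 0.18 and Gap43, a growth cone protein, at 0.12. Of all genes with mean log2 levels of 6 to 7, where the median of the neuronal list lay, 6.4% did. In the neural crest list 2 of 13 did, Sox10 at 0.58 and Ets1 at 0.54, and the mean correlation within that list was 0.01.

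The sets differed in some neural genes in directions that the deviations do not show. In limma, Shh was higher in replicates 7 to 12 by 1.84 on the log2 scale (SE 0.53, adjusted p = 0.0145) and its levels were 39.3 to 658 in replicates 1 to 6 and 311 to 1097 in replicates 7 to 12. Gap43 was lower there by -1.55 (SE 0.08, adjusted p = 4.17e-08), with levels of 540 to 704 in replicates 1 to 6 and 185 to 224 in replicates 7 to 12. Of the 61 neural genes 5 were higher and 1 was lower in replicates 7 to 12, which is below the share of 36.9% of all probes, and genes of large deviation SD also have large standard errors in this test.

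Posterior genes formed a group of 11. It held Hoxc9, Hoxc10, Hoxb9, Hoxa7, Hoxd9 and Hoxd10, which give identity to the trunk and tail, with Cdx2 and Evx1, homeobox regulators of the tail bud, Tbx6 of somite mesoderm, the signal gene Fgf17 and Sgip1, an endocytosis gene. Hoxc10 had a lowest level of 36.5 in Control 11, a median of 287 and a highest of 628 in Control 1. Cdx2 had 65.4 in Control 10, 381 and 1049 in Control 3, with 1003 in Control 4 and 925 in Control 8. Hoxd9 had 78.7 in Control 6, 227 and 510 in Control 8. In its own set Control 8 was the highest for all 3 genes, with Hoxc10 at 410 against 36.5 to 230 in the other 5 embryos.

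The average deviation over the 11 genes was 1.33 in Control 8, against -0.99 in Control 6, -0.96 in Control 12 and -0.77 in Control 10. The mean correlation over pairs was 0.76, with a lowest value of 0.65 without Control 8, and Hoxc10 and Cdx2 correlated at 0.84. Of the Hox list 21 of 35 genes were kept and 7 (33.3%) had an SD of at least 0.5, against 3.8% of all genes. Hoxb2 of the hindbrain, at 0.20, and Hoxb4, at 0.25, were among those that did not, and the mean correlation within the whole list was 0.30. In the comparison of the sets 5 of the 11 genes were lower in replicates 7 to 12, against 16.8% of all probes, among them Fgf17 by -1.87 (SE 0.41, adjusted p = 0.00251), Hoxc10 by -1.64 (SE 0.51, adjusted p = 0.0214) and Cdx2 by -1.38 (SE 0.50, adjusted p = 0.0414), and none was higher.

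Neural and posterior genes ran in opposite directions. The average deviations of the 2 groups correlated at -0.62 over the 12 control embryos, and between -0.72 and -0.31 when each embryo was left out in turn. Control 8 had the lowest neural and the highest posterior value of all. Stmn2 and Hoxc10 correlated at -0.66, and at -0.44 without Control 8. The same measure of the 2 groups was -0.60 in the 12 ethanol-exposed and -0.43 in the 12 nicotine-exposed embryos. Other relations between groups changed sign. The yolk sac and placental group correlated with the neural group at -0.59 in controls, 0.11 in ethanol and 0.22 in nicotine. Its correlation with the posterior group was 0.42, -0.46 and -0.20. These are descriptions of groups built from the same 12 arrays.

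The fourth group held 39 genes of mixed kinds, led by 2900060B14Rik and C430049B03Rik at deviation SDs of 0.99 and 0.95. Without Control 6 these SDs were 0.80 and 0.64. Uba6, an enzyme that activates ubiquitin, had a lowest level of 538 in Control 11, a median of 1746 and a highest of 7536 in Control 4. Several members are small mitochondrial proteins: Tomm7 of the import pore had 893, 2322 and 4097, Slirp, which guards mitochondrial RNA, 605, 1887 and 3294, and Pet100, an assembly factor of cytochrome oxidase, 260, 1038 and 1615. Each of these 3 was lowest in Control 6 and highest in Control 4. The group also held Atp5e of ATP synthase (SD 0.64), S100a6, a calcium-binding protein (0.70), and Nppb, a natriuretic peptide gene of the heart (0.71).

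Control 6 lay lowest in this group, with an average deviation of -1.35, and Control 4 was highest at 0.86. The mean correlation over pairs was 0.77, and 0.63 without Control 6. The ribosomal gene Rps15 showed the same low embryo without being in the group, with 5648 in Control 6 and 8992 to 11689 in the other 11. The average deviation of the 26 kept ribosomal protein genes was -0.10 in Control 6 and -0.09 in Control 7, and within 0.05 of 0 in the other 10. That of 21 kept genes of oxidative phosphorylation was -0.41 in Control 6 and 0.26 in Control 4. The average deviations of this group and of the neural group correlated at -0.79, between -0.87 and -0.75 with each embryo left out, at -0.62 in the ethanol-exposed and at -0.33 in the nicotine-exposed embryos.

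Another, small group held 9 genes, among them forebrain regulators. Lhx5 of the diencephalon had a lowest level of 10.2 in Control 3, a median of 69.9 and a highest of 140 in Control 4, and Wnt8b, a signal of the forming cortical hem, had 8.47, 51.9 and 155. The forebrain factors Fezf1 and Fezf2 had 46.3 to 354 and 50.6 to 253, both highest in Control 4 too. Tbx4, which marks the hindlimb bud, had 32.4, 108 and 449, and Trh, a neuropeptide gene, 32.8, 112 and 434, both highest in Control 1. The average deviation was 0.79 in Control 9 and 0.70 in Control 1 against -0.90 in Control 3, -0.82 in Control 12 and -0.68 in Control 8. Control 4 was high for the forebrain genes of this group and low for En2 and Shh, and the mean correlation over the 36 pairs was 0.58, the loosest of the 6 groups.

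The last group held 22 genes, most of them of red cells and platelets. Among them were Ermap, Kel and Icam4, membrane proteins of the red cell that carry blood group antigens in humans, and Klf1, Gfi1b and Nfe2, transcription factors of the red cell and megakaryocyte lineages. Capitals in the sequences below mark 2 short motifs that were searched before the start sites of the group's genes. Ermap, Kel and Icam4 were picked for print because both motifs stand there, so they are not a sample of the group. The 250 bases before their start sites follow, each 5′ to 3′ on the strand of its gene. They lie at chr4:119189996-119190245 (minus strand), chr6:41704326-41704575 (minus strand) and chr9:21029182-21029431 (plus strand) of GRCm38.p6, from RefSeq, and the motifs are GATAA, known from GATA factors, and CACCC, known from Klf factors, on either strand.
Ermap: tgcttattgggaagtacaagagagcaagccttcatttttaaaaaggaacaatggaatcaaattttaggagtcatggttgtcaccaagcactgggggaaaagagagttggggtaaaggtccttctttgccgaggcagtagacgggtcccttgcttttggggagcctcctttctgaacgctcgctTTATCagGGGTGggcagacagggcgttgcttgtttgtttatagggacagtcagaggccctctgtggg
Kel: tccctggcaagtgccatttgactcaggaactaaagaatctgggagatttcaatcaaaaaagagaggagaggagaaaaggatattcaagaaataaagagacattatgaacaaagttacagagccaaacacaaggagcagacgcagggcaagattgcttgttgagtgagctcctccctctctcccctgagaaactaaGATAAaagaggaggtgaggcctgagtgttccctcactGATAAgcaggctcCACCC
Icam4: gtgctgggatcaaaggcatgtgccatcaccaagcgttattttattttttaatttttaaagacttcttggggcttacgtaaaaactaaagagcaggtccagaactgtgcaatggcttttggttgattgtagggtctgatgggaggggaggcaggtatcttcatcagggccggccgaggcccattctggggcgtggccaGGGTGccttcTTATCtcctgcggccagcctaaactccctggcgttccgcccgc
Of the 22 genes 18 matched a RefSeq promoter. GATAA or its reverse complement stood in 11 of the 18 (61.1%), against 14.3% of 7650 promoters of kept genes and 23.0% of all 27025 promoters. CACCC or its reverse complement stood in 15 (83.3%), against 57.0% and 51.3%. The motifs share no overlap in the stretches printed. The motifs GTTAAT, of hepatocyte nuclear factors, and TTTATG, of Cdx factors, were searched in the same way. GTTAAT stood in 3 of 33 promoters of the yolk sac and placental group against 3.53% of kept genes. TTTATG stood in 1 of 7 of the posterior group against 5.46%. No motif was confined to 1 group. GATAA stood in 11 of 33 promoters (33.3%) of the yolk sac and placental group. It stood in 10 of 44 of the neural and 1 of 7 of the posterior group. CACCC stood in 21, 25 and 6 of these. GTTAAT stood in 2 of 44, 2 of 7 and 1 of 18 of the neural, posterior and red cell groups. TTTATG stood in 4 of 33, 3 of 44 and 1 of 18 of the yolk sac and placental, neural and red cell groups. A match is a run of letters and not a site.

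The levels of this red cell group were highest in Control 12 and lowest in Controls 1 and 8. Alas2, which starts heme synthesis in red cells, had a lowest level of 623 in Control 8, a median of 1510 and a highest of 2504 in Control 12. Hemgn, a nuclear protein of red cell precursors, had 77.7, 212 and 492 with the same extremes, and Ermap 37.2, 142 and 275. Klf1 had 167 in Control 8, 510 and 903 in Control 6. Pf4, a platelet chemokine gene that led the group with an SD of 0.82, had 48.8 in Control 8, 113 and 727 in Control 4. The average deviation over the 22 genes was 1.07 in Control 12, -0.95 in Control 8 and -0.91 in Control 1, and the mean correlation over pairs, 0.83, was the tightest of the 6 groups.

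Globins were not in the group. Hba-a1, Hbb-y, Hba-x and Hbb-bh1 had deviation SDs of 0.10 to 0.22 near the top of the scale, where the spread is compressed, and so could not be among the 200 genes that were grouped. With Alas2 they correlated at 0.65, 0.17, -0.29 and 0.47. The adult beta globin gene Hbb-bs, which is on the list of maternal blood, had an SD of 0.57 with a lowest level of 3566 in Control 6, a median of 8048 and a highest of 15133 in Control 8. Control 8 was thus the highest embryo for Hbb-bs and the lowest for Alas2, Hemgn and Klf1. Hbb-bs and Alas2 correlated at 0.22 over 12 embryos and at 0.59 without Control 8. Of the list of adult globin and maternal blood 2 of 12 genes were kept, Hbb-bs and its near-identical copy Hbb-bt. The neutrophil gene S100a8 had levels of 2.81 to 37.1, S100a9 of 2.31 to 6.29 and Ngp of 3.11 to 8.18. The part of maternal blood in Hbb-bs was not tested.

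**Figure D4:**
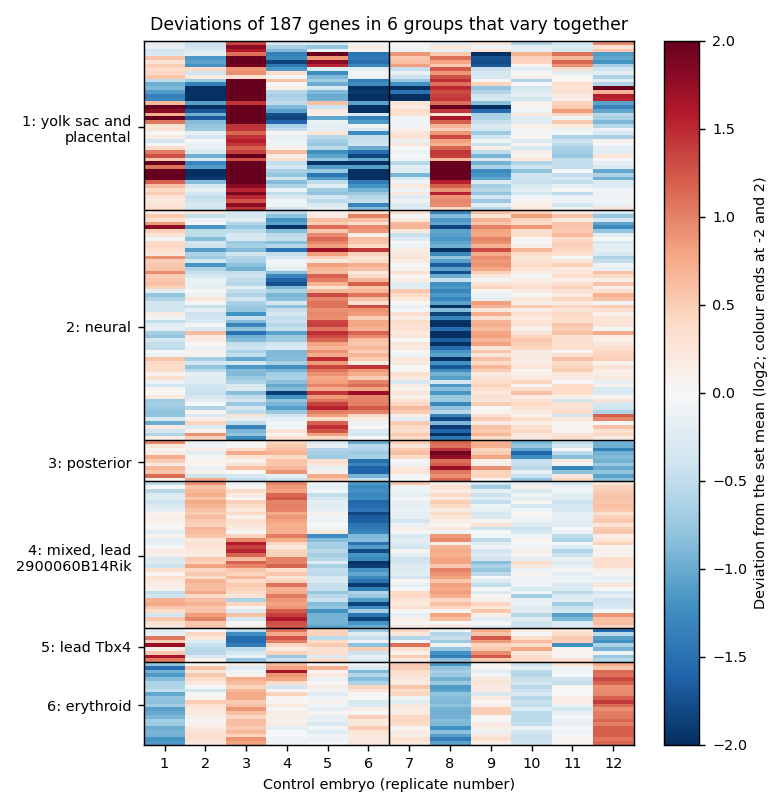
Deviations (log2, from the mean of an embryo's own set, colour scale ending at -2 and 2) of the 187 genes of the 6 groups in the 12 control embryos, 1 row per gene. Control 3 is red in the yolk sac and placental rows, Control 8 blue in the neural and red in the posterior rows, Control 6 blue in the mixed rows and Control 12 red in the erythroid rows.

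Whether 2 genes of 1 list vary together was tested for 39 pairs, the 2 brightest kept members of each list, so that the choice did not use their correlation. A permutation test of Pearson's r within the sets (two-sided, 100000 resamples, adjusted over 39 pairs) passed 3 pairs. Krt8 and Krt18, partner keratins of simple epithelia and trophoblast, correlated at r = 0.95 (Spearman's rho 0.87, adjusted permutation p = 0.00137, and 0.0143 for rho). Krt8 had a lowest level of 2603 in Control 9, a median of 4401 and a highest of 7625 in Control 3, and Krt18 had 785, 1304 and 2075 with the same extremes. Without the 2 embryos whose deviations of Krt8 lay farthest from their median, Controls 5 and 8, r was 0.88. In the 24 exposed embryos r was 0.86. Hbb-bs and Hbb-bt correlated at r = 0.98 (rho 0.97, adjusted permutation p = 0.00137, and 0.00234 for rho), at 0.97 without Controls 10 and 6 and at 0.97 in the exposed embryos, but their probes may share signal.

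The third pair was Fdps and Sqle, enzymes of cholesterol synthesis, with r = 0.68 (rho 0.60, adjusted permutation p = 0.0208, and 0.155 for rho). Fdps had levels of 4053 to 5814 and Sqle of 1977 to 3294, both lowest in Control 3. Without the 2 embryos whose deviations of Fdps lay farthest from their median, Controls 8 and 3, r was 0.48. In the 24 exposed embryos r was 0.26. Without Control 3 alone r was 0.58 (adjusted permutation p = 0.0721), and without Control 8 alone 0.69 (0.155). The adjusted permutation p was also over 0.05 without Control 5 (r 0.66, p = 0.0887), 7 (0.68, 0.0643) or 12 (0.68, 0.0547), so the call was lost there while r stayed close to that of all 12 embryos.

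The other 36 pairs did not pass. Ifitm2 and Ifitm1, interferon-inducible membrane proteins, had r = 0.82 (adjusted permutation p = 0.055), and Crabp2 and Crabp1, which bind retinoic acid, r = 0.78 (0.052). Meox1 and Tcf15 of the somite had r = 0.75 (0.0552) and Lin28a and Greb1 of the tail bud list 0.61 (0.052). The Y-linked pair Eif2s3y and Kdm5d had r = 0.76 (0.052 for r and 0.0143 for rho). The brightest members of bright lists were loosely tied: r was -0.05 for Rps4x and Rplp1, 0.48 for Hba-a1 and Hbb-y (adjusted permutation p = 0.17) and 0.53 for Actc1 and Myl4 (0.221).

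The list of heart muscle genes stood between the extremes. Of 25 genes 19 were kept and 5 (26.3%) had an SD of at least 0.5, against 3.8% of all genes. Among the 5 were Nppb at 0.71 and Myh7, a myosin heavy chain gene, at 0.68. Myl4 had a lowest level of 5197 in Control 6, a median of 9549 and a highest of 13785 in Controls 7 and 8. The average deviation of the 19 genes was 0.68 in Control 8 and 0.44 in Control 3, and -0.51 in Control 6 and -0.44 in Control 5. The mean correlation within the list was 0.70. Endothelial genes went apart from them: the average deviation of 16 kept genes was -0.62 in Control 4 and 0.41 in Control 5. Robo4, a guidance receptor of vessels, had 65.8 in Control 4 and a median of 220. Ramp2 had 1023 in Control 4 and 1717 in Control 5. Egfl7, the brightest kept gene of the list, went the other way with 3588 in Control 4 and 2643 in Control 5. Egfl7 and Ramp2 correlated at -0.19, and the mean correlation within the list was 0.48.

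An SD of at least 0.5 was rare over all genes (3.8%), and lists of this size would hold few such genes or none at that share. Lists with none were the ribosomal proteins (0 of 26 kept, median SD 0.13), the cell cycle (0 of 19), glycolysis (0 of 10), the cytoskeleton (0 of 13), the segmentation clock (0 of 12), retinoic acid (0 of 8), cholesterol synthesis (0 of 15), p53 targets (0 of 10), the hypoxia response (0 of 11), circadian genes (0 of 9), the somite list (0 of 5), the list of Lin28a and pluripotency (0 of 8) and the 3 kept genes of the sex check. The mean correlation within them ran from -0.07 for circadian genes to 0.54 for the sex check. Mdm2, which restrains p53, had an SD of 0.06 and levels of 1126 to 1541.

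Spread in the exposed embryos gave a second measurement of the same genes. Absolute deviations from the mean of group and set were compared by limma (a Levene-type test) over all 36 embryos. Of 16313 probes 0 (0.0%) differed in spread between control and ethanol at an adjusted p under 0.05, with 806 at an unadjusted p under 0.05 and a smallest adjusted p of 0.256. Between control and nicotine 0 (0.0%) differed, with 1087 at an unadjusted p under 0.05 and a smallest adjusted p of 0.55. A difference in spread was thus not detectable for any gene with 12 embryos a group.

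The genes that varied in the controls were partly those that varied in the others. Of the 200 genes of largest spread in the controls, 115 (57.5%) were among the 200 of largest spread in the ethanol group and 95 (47.5%) in the nicotine group. Of the 25 leading genes 24 were among the 200 in ethanol, all but Prl3d3, and 24 in nicotine, all but Nefm. Between lists of the 25 genes of largest spread, controls shared 19 with ethanol and 9 with nicotine. Yolk sac genes kept their spread, with deviation SDs of 2.10 and 2.49 for Ttr and 2.26 and 2.57 for Apoa1 in the ethanol and nicotine groups. Placental genes had 0.69 and 1.42 for Prl2c3 and 0.44 and 0.82 for Prl3d3, against 2.81 and 2.39 in the controls, or 1.2 and 0.85 without Control 3. En2 had 1.13 and 1.30, and Gzmd 0.83 and 1.26. For Prl2c3 the Levene-type test gave an unadjusted p of 0.0133 and an adjusted p of 0.903 against ethanol.

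Groups of genes varied together in the exposed embryos as well. The mean correlation over pairs was 0.57 in ethanol and 0.48 in nicotine for the yolk sac and placental group, 0.45 and 0.53 for the neural group, 0.72 and 0.60 for the posterior group, 0.65 and 0.50 for the mixed group and 0.64 and 0.72 for the red cell group. Over all genes it was 0.00 in each group of embryos. The small group of Tbx4 and the forebrain regulators had 0.21 in ethanol and 0.58 in nicotine. In the neural group 58 of 61 genes had a smaller mean absolute deviation in ethanol than in the controls and 48 in nicotine, and in the red cell group 22 and 8 of 22, against 5641 and 4159 of all 9411 genes. The genes had been picked for a large spread in the controls, and such a choice alone favours a smaller spread in other embryos. The heart muscle list, which was not picked for its spread in the controls, had a median SD of 0.41 there, 0.41 in ethanol and 1.56 in nicotine. The nicotine value was the largest of all lists in that group, so this list is not a typical one. Its pair Actc1 and Myl4 had unadjusted p-values of 0.0149 and 0.0309 in the test against nicotine and adjusted p-values of 0.639 and 0.688 (limma).

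**Figure D5:**
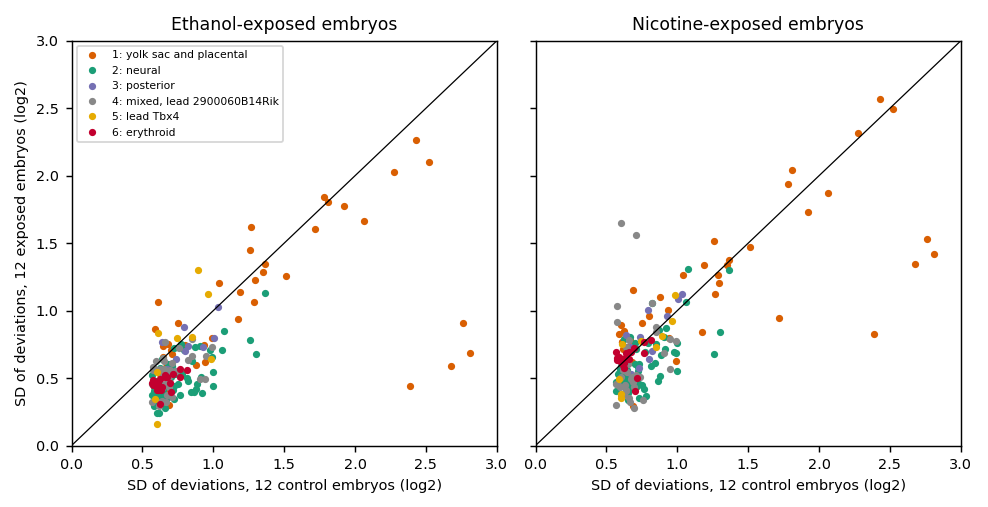
Deviation SD (log2) of the 187 grouped genes in the 12 control embryos (x axis) against the same SD in 12 ethanol-exposed (left) and 12 nicotine-exposed (right) embryos (y axis), with a line of equality. Ttr and Apoa1 lie near the line at the upper right, the Prl2c genes far below it, and most of the neural genes below it.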

How the data were processed

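RNA of 12 control embryos was analysed from the deposited intensity values, for which the authors used GenomeStudio 1.9.0, per the submitters' processing notes. How background and normalization were handled is not given in the sources used here. All 12 arrays had nearly the same distribution (median intensity 10.7 to 10.8, mean 357.7, highest 18147), as quantile normalization would leave, and nothing further was normalized. The number of arrays limits the precision. The 72 columns of a file before normalization match no sample label and were not used. Symbols came from the platform annotation (34885 probes with 1 symbol, 18 with several, 10378 with none) and RefSeq.

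Genes and lists were chosen with earlier results of these data known. Named are the 20 brightest genes, the 25 of largest and 10 of smallest spread, the leading members of lists and groups, and the sex check genes; other members of groups were named after their values were seen. Groups came from average-linkage clustering of the 200 most variable genes at r = 0.5. Tests were limma 3.58.1 in R 4.3.3 and permutation of pairs, adjusted by Benjamini-Hochberg, after tests on simulated data. Embryos were treated as independent samples, and the limma p-values set differences against the spread between these embryos. Shared mothers and slides are not marked in the labels and were not accounted for. Replicate numbers occur in all 3 groups. Deviations of same-number control and exposed embryos from their group means correlated over 0.1 in 24 of 24 pairs (mean 0.58, lowest 0.24). Same-number embryos are of the same set, and these deviations kept the set means, so the count cannot show pairing by number. After set means were removed the correlation was over 0.1 in 15 of 24 (mean 0.18, lowest -0.28). Alternatives were the pseudocount, the filter, each embryo left out, set means kept, a robust spread and replicate number as a block. Splits of the first group and correlations of single gene pairs were chosen after seeing the data.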

Additional observations from a re-analysis of the deposited data

How the results depend on the processing

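Fits with the replicate number as a block called 0 probes for spread against ethanol and 0 against nicotine (1035 and 1496 at an unadjusted p under 0.05). The block changed no call. The number of genes with a deviation SD of at least 1, 32 here, was 63 with a pseudocount of 1, 15 with 64, 57 with no filter, 5 with intensity 64 on all 12 controls, 55 with set means kept and 14 by the median absolute deviation. Of the 25 leading genes these lists shared 22, 22, 16, 3, 22 and 17. Leaving out each embryo gave 24 to 38, the lowest without Control 3. Pairs that passed, 3 here, were 6 of 37 with intensity 64 on all 12 controls and 6 with set means kept, and 2 to 5 with each embryo left out (5 without Control 1, 6 or 9). The cause was not tested. Leaving out each embryo, 17 to 20 of the 20 brightest genes stayed so, 5105 to 6474 probes differed between the sets and 0 in spread. Other settings gave 4455 to 6165 for the sets. No result reversed. Most of the 25 leading genes have medians under 300 intensity units, where the pseudocount sets the size of the SD.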

Other observations

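Some genes of other lists had a large spread. Fos, an immediate early transcription factor that responds within minutes to handling and signals, had a lowest level of 13.6 in Control 12, a median of 36.4 and a highest of 176 in Control 6, with 162 in Control 9. Its deviation SD was 0.88, and it was the 1 of 13 kept immediate early genes with an SD of at least 0.5, against 3.8% of all genes. Klf6, the brightest of that list, had 0.16. H2bc11, a replication-dependent histone gene, had 3107 in Control 9 and 618 to 1227 in the other 11 embryos, so its spread rests largely on Control 9. Of the 28 kept histone genes 3 had an SD of at least 0.5 (H2ac8 at 0.60, H2bc11 at 0.56 and H2ac11 at 0.50), the median SD was 0.40 and the mean correlation over pairs 0.43. Their average deviation was 0.44 in Control 9 and 0.38 in Control 4, and -0.50 in Control 6. Ifitm1, an interferon-inducible gene also used by early germ cells, had a lowest level of 747 in Control 6, a median of 1542 and a highest of 2624 in Control 8. Bgn, the matrix proteoglycan biglycan, had 271 in Control 4 against a median of 975.

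Lists for a slightly earlier and a slightly later embryonic age ran apart in some embryos. The average deviation of 8 kept genes of the earlier list was 0.75 in Control 8, 0.28 in Control 1 and -0.52 in Control 10. That of 14 kept genes of the later list was -0.61 in Control 8, -0.34 in Control 3 and 0.43 in Control 5. These lists share members with the posterior and neural groups, 3 of the earlier list with the first and 4 of the later list with the second. In the list of neural progenitors 6 of 12 kept genes had an SD of at least 0.5, and in the tail bud list 5 of 14. The counts were 10 of 17 for primitive erythroid genes, 2 of 8 for the limb bud, 3 of 16 for endothelium, 2 of 14 for iron and heme, 2 of 14 for imprinted genes (Phlda2 and Rian) and 2 of 4 for macrophages (Lyz1 and Pf4). They were 1 of 15 for translation factors (Eif3h), 1 of 21 for oxidative phosphorylation (Atp5e), 1 of 11 for heat shock (Hspb1), 1 of 17 for the unfolded protein response (Trib3) and 1 of 17 for the extracellular matrix (Bgn). Over all genes the share was 3.8% (358 of 9411), and a count of 1 in lists of this size is near that share. These values are descriptions, and no test was made on them.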
